A study of Mus musculus with 2 samples.

Results

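The subject is the platelets found among blood cells that had been sorted for neutrophils. They are 901 of 26438 filtered barcodes in 2 single-cell RNA libraries of mouse blood, 573 of 13517 in the library from old mice (24 months) and 328 of 12921 in the library from young mice (2 months). The mice are labelled male, no strain, allele or treatment is given, and neither is how many animals each library pools. Blood of both ages was freed of red cells by lysis and sorted by flow cytometry for viable cells positive for CD45, CD11b and Ly6G. RNA was then captured per cell with unique molecular identifiers (UMIs), which count each captured molecule once. The sex label is not borne out throughout: Xist, which the inactive X chromosome makes, was at a CPM (counts scaled to a total of 1000000) of 214 in filtered old and 168 CPM in filtered young barcodes. Eif2s3y of the Y chromosome had 0 UMIs in either library, whereas Ddx3y, also Y-linked, had 964 in the old and 1322 in the young.

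A platelet barcode was defined by measured values. It had at least 200 genes, at most 20% mitochondrial UMIs and fewer than 2500 UMIs, and at least 8 UMIs and 1% of its UMIs came from 6 genes, Pf4, Ppbp, Itga2b, Gp9, Gp1bb and Clec1b. The lowest share of these 6 genes inside the limit was 1.03% in the old and 1.30% in the young library. The highest share outside it, among barcodes with at least 8 such UMIs, was 0.896% (8 old barcodes lay outside) and 0.867% (4 young barcodes). That these values lie on either side of 1% follows from the rule. Among all other barcodes under 2500 UMIs the highest share was 1.38% in the old and 0.984% in the young library. The median platelet barcode held 50 UMIs of the 6 genes in the old and 42 in the young library, against the minimum of 8. There was no gap at the limit on depth. The deepest platelet barcodes had 2488 and 2464 UMIs, and the shallowest barcodes above the limit that met the other criteria had 2500 and 2504. These deeper platelet barcodes numbered 109 old and 56 young, and serve below as separate barcodes of the same libraries. Their name follows from the rule only. Most of them, 69 old and 35 young, held 1% or more neutrophil marker UMIs, with medians of 12.7% and 7.82%. In these a median of 1.63% and 1.24% of UMIs came from the 6 genes. How far neutrophil RNA shifts ratios in deeper barcodes was not tested.

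Platelets are anucleate fragments that megakaryocytes of the marrow shed into the blood, where they plug injured vessels. They inherit RNA from the megakaryocyte and make almost none of their own, so their transcripts record what was packaged and what has survived. They adhere through glycoprotein and integrin receptors, are activated by thrombin, collagen and ADP, and release granules filled with chemokines, growth factors and clotting proteins. Ly6G is a surface protein of mouse neutrophils, and activated platelets are known to bind to neutrophils.

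The first 3 promoters below belong to Pf4, Ppbp and Itga2b, which define platelets here, and the other 3 to Tm4sf1, Cd59a and Clca3a1, which had the largest old over young ratios among platelet-enriched genes. Each is the 250 bases before the gene's start in the RefSeq annotation, 5′ to 3′ along the gene, with capitals for the letters GGAAGT or, on the other strand, ACTTCC, a core bound by ETS factors such as Fli1.
Pf4 (chr5:90772185-90772434, GRCm38.p6, plus strand): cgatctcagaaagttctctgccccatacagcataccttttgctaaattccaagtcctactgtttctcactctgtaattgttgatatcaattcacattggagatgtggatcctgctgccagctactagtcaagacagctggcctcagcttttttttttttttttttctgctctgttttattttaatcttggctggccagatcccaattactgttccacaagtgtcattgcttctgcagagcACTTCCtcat
Ppbp (chr5:90768268-90768517, GRCm38.p6, plus strand): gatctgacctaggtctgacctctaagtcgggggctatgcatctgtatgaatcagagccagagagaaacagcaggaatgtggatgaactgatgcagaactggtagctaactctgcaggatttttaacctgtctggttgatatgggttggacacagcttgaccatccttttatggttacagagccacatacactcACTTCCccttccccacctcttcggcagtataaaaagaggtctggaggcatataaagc
Itga2b (chr11:102469884-102470133, GRCm38.p6, minus strand): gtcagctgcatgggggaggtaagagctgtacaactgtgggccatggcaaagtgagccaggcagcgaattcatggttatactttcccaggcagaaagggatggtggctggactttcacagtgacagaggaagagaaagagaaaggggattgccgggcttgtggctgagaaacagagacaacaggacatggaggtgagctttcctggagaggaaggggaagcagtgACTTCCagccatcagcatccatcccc
Tm4sf1 (chr3:57301989-57302238, GRCm38.p6, minus strand): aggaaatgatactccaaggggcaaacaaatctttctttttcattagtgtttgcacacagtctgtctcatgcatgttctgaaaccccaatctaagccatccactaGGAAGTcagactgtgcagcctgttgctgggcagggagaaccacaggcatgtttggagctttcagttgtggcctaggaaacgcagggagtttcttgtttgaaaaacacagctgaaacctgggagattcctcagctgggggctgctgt
Cd59a (chr2:104095551-104095800, GRCm38.p6, plus strand): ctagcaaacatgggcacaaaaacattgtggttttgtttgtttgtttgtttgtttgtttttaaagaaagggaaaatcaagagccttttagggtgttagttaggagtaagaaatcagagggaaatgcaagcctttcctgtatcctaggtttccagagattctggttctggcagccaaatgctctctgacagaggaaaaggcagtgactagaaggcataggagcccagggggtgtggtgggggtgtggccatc
Clca3a1 (chr3:144760978-144761227, GRCm38.p6, minus strand): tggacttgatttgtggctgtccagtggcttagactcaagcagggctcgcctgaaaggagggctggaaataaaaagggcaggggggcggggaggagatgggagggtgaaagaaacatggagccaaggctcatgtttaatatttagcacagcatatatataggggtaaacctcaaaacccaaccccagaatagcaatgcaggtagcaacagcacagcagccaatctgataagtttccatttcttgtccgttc
The ETS letters occur in the promoters of Pf4, Ppbp, Itga2b and Tm4sf1, 10, 57, 26 and 146 bases before the start, and not in those of Cd59a and Clca3a1. They were found on either strand in 16.6% of 290 promoters of platelet-enriched genes, in 27.1% of 580 promoters of other measured genes and in 19.99% of 27025 promoters of all genes. The GATA letters AGATAA were in 6.21%, 6.03% and 10.3% of the same promoter sets and the NF-E2 letters TGACTCA in 5.17%, 3.45% and 4.43%. No motif contains another, both strands were searched, and neither the GATA nor the NF-E2 letters occur in the 6 promoters shown. A match is a description of the letters and not a bound site.

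Platelet barcodes made up 4.24% (3.91 to 4.59) of the filtered old barcodes and 2.54% (2.27 to 2.82) of the young. Parentheses hold exact 95% intervals, Clopper-Pearson for shares and Poisson for UMI counts, and cover counting error only. Among filtered barcodes under 2500 UMIs, they were 573 of 1028 (55.7%, 52.6 to 58.8) in the old and 328 of 798 (41.1%, 37.7 to 44.6) in the young library. Each age has a single library, so no difference between ages can be tested, and the shares are shares of what passed the Ly6G sort. The number of platelets in the blood and their carry-over through the sort cannot be told apart. Nor can the number of platelets and the RNA in each, where a summed level is given. The labels do not say how barcodes were called, and none in either library has under 500 UMIs, so platelets with less RNA are not seen. The libraries share 53 barcode sequences, of which 2 are platelet barcodes in each library. No doublet caller was run.

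No barcode has under 500 UMIs and the rule takes none from 2500, so the depth of platelet barcodes was bounded in advance. Within these bounds the platelet barcodes of the libraries were alike in depth. Their median was 791 UMIs in both libraries and 369 and 367 genes, and they held 539355 old and 308026 young UMIs together. They thus took 0.427% and 0.464% of all filtered UMIs. For comparison, barcodes with at least 2500 UMIs, at least 5% neutrophil marker UMIs and under 0.1% from the 6 platelet genes, called neutrophil barcodes here, numbered 8936 and 8311 with medians of 7901.5 and 4284 UMIs.

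Markers that the rule did not use bear on the platelet label. Treml1, a receptor of platelet granule membranes, Gp5, a subunit of the von Willebrand factor receptor, and Tubb2a, a beta tubulin, were looked up in barcodes thinned at random to 500 UMIs. Treml1 was found in 69.8% of old and 62.5% of young platelet barcodes, against 0.4% and 0.3% of 1000 neutrophil barcodes of each library. Gp5 was found in 47.8% and 51.8% against 0.2% and 0.1%, and Tubb2a in 57.1% and 62.2% against 0.7% and 0.1%. Without thinning, Treml1 was in 84.5% of old and 79.0% of young platelet barcodes and in 5.70% and 1.89% of the deeper neutrophil barcodes. All 3 genes were thus spread through the platelet barcodes of both libraries. Their near absence from neutrophil barcodes is partly by choice, since these had to hold under 0.1% from the 6 platelet genes. In all other filtered barcodes, not held to that limit, Treml1 stood at 22.6 CPM in old and 14.2 CPM in young. In platelet barcodes it stood at 2714 CPM in old and 2133 CPM in young. Malat1, a long RNA that stays in the nucleus, was in 29.5% of thinned platelet barcodes in the old and 29.9% in the young library, against 95% and 98.9% of neutrophil barcodes.

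RNA of other blood cells was present in unequal amounts. The 10 neutrophil markers took a median of 2.13% of UMIs per platelet barcode in the old library and 0.65% in the young. Of the old platelet barcodes 34 held under 1% neutrophil UMIs, 462 held 1% to 5% and 77 held 5% to 20%. Of the young, 262, 66 and 0 fell in these ranges. The groups overlapped, but most old barcodes lay above most young ones. In neutrophil barcodes themselves the 10 markers took a median of 29.8% of UMIs in old and 12.3% in young. The marker share thus does not measure the amount of neutrophil RNA alone. Not every marker was higher in old platelet barcodes. Csf3r stood at 219 CPM in old against 331 CPM in young, and Mxd1 at 215 CPM in old against 315 CPM in young. S100a8, the calprotectin subunit that fills neutrophils, was detected in 97.7% of thinned old platelet barcodes and 64.6% of young. Its level in platelet barcodes was 7.88% of that in neutrophil barcodes in the old and 3.82% in the young library. If all of this S100a8 had come with neutrophil RNA in its own proportions, it would have brought along a known amount of every other gene, and this amount is given below as a percentage of the gene's level in platelet barcodes.

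Markers of most other cells were near 0. The 5 basophil and mast cell markers had 0 UMIs in both libraries, and the 5 endothelial markers summed to 11.1 CPM in old and 29.2 CPM in young platelet barcodes, with Cdh5 and Emcn at 0. B cell markers summed to 53.8 CPM in old and 107 CPM in young, dendritic cell markers to 38.9 and 42.2 CPM in old and young, non-classical monocyte markers to 26.0 and 32.5 CPM in old and young, NK cell markers to 11.1 CPM in old and 81.2 CPM in young and eosinophil markers to 3.71 CPM in old and 3.25 CPM in young. The T cell list stood at 263 CPM in old and 159 CPM in young, nearly all from Lat, which platelets also make, and the classical monocyte list at 769 CPM in old and 175 CPM in young, mostly from F13a1, a platelet gene too. Erythroid markers summed to 16069 CPM in old and 13570 CPM in young and reached at least 10% of UMIs in 7 old and 2 young platelet barcodes.

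**Figure D1:**
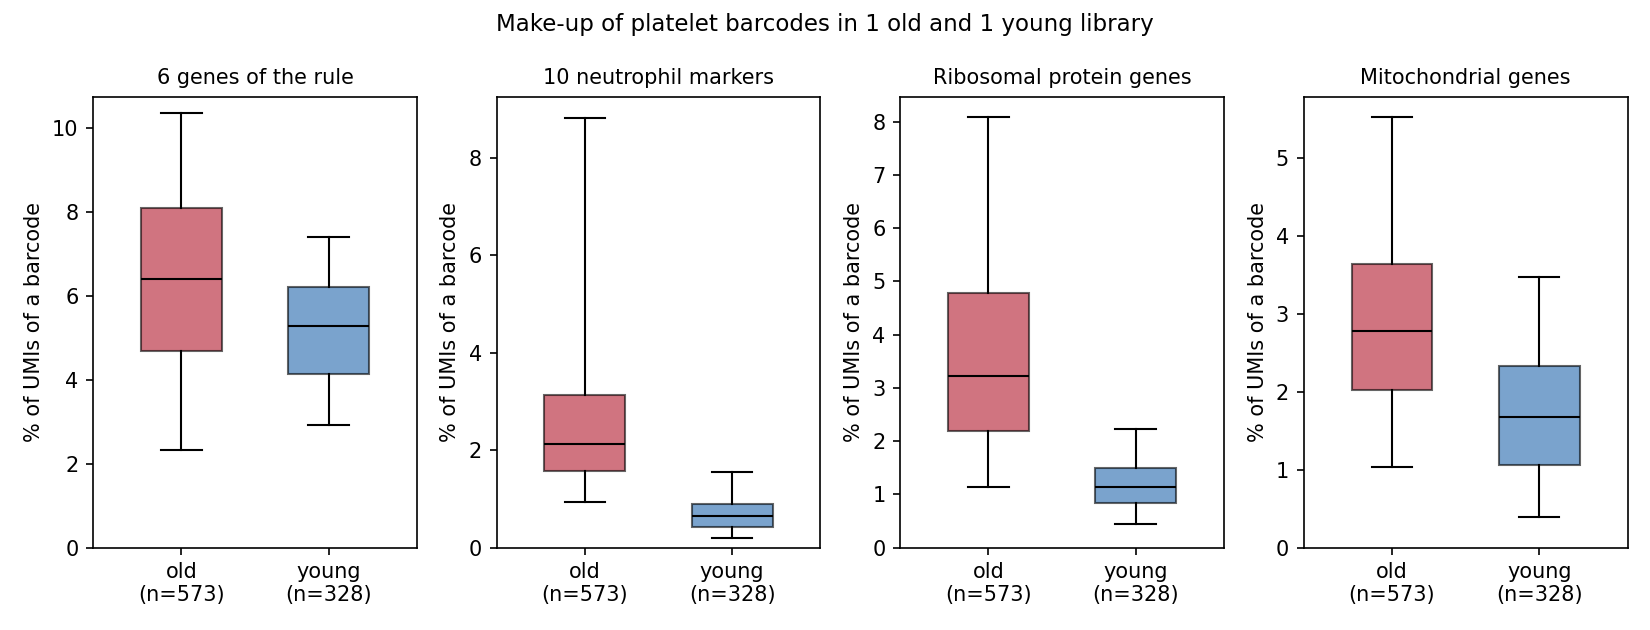
Make-up of the 573 old and 328 young platelet barcodes as the percentage of each barcode's UMIs from 4 gene groups, old left of young in each panel. Boxes span the quartiles with the median as a line and whiskers the 5th to 95th percentile; the median neutrophil share was 2.13% in old and 0.65% in young barcodes, and the median ribosomal protein share 3.22% and 1.15%.

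UMIs were summed over the platelet barcodes of each library and given as CPM. Levels were compared for the 1100 genes with a mean of at least 100 CPM over the libraries, called measured here, and a gene was counted as higher or lower in old platelets from 1.5-fold, with 1 CPM added to both levels. Of these genes 229 (20.8%) were higher in old platelets and 296 (26.9%) lower, with a median log2 ratio of old over young of -0.13. Relative to this median gene, 267 (24.3%) were higher and 227 (20.6%) lower. The plain shares are the background for the plain counts below, and the centred shares for the counts relative to the median gene.

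Platelet-enriched genes, those at least 4-fold above all other filtered barcodes in each library, numbered 361 and took 47.8% of the UMIs of old and 52.9% of young platelet barcodes. Since they were picked on the same barcodes, their enrichment is a description. Their median log2 ratio was -0.36, with 32 higher (8.86%) and 125 lower (34.6%) in old platelets. Relative to the median gene 40 were higher and 100 lower. Relative to the median platelet-enriched gene the counts were balanced, at 63 higher and 60 lower, while of all measured genes 364 (33.1%) were then higher and 125 (11.4%) lower. The excess of lower platelet-enriched genes on the first 2 scales stands beside larger neutrophil marker and ribosomal shares of the old barcodes. Without mitochondrial, ribosomal protein, haemoglobin and neutrophil marker genes in the total, the platelet-enriched median was -0.255, against -0.115 over all measured genes. With the UMIs expected to come with S100a8 taken off, these medians were -0.296 and -0.131. The part of neutrophil and ribosomal RNA in the excess was not tested.

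The most counted platelet-enriched transcripts included genes within and past 1.5-fold. Tmsb4x, which encodes the actin-binding peptide thymosin beta 4, stood at 100361 CPM in old and 106754 CPM in young platelets. Pf4, a chemokine of alpha granules, stood at 29257 CPM in old and 25173 CPM in young. Myl6, a myosin light chain, stood at 13579 CPM in old and 12483 CPM in young. Itga2b, the integrin chain that pairs with Itgb3 to bind fibrinogen, stood at 4169.8 CPM in old and 4123 CPM in young. Each of these 4 lay within 1.5-fold, and since Pf4 and Itga2b helped to choose the barcodes, their values are a description only. Ywhah, a 14-3-3 adaptor protein, was at 5735 CPM in old and 9486 CPM in young platelets (log2 -0.73). Tsc22d1, a leucine zipper protein, was at 5534 CPM in old and 9379 CPM in young (log2 -0.76), and Lsm12 at 2865 CPM in old and 5289 CPM in young (log2 -0.88). All 3 were lower in old platelets, also relative to the median gene. Nrgn, which encodes a calmodulin-binding protein, was lower in old platelets, at 10431 CPM in old against 16012 CPM in young (log2 -0.62), but no longer counted as lower once centred on the median gene (-0.48).

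**Figure D2:**
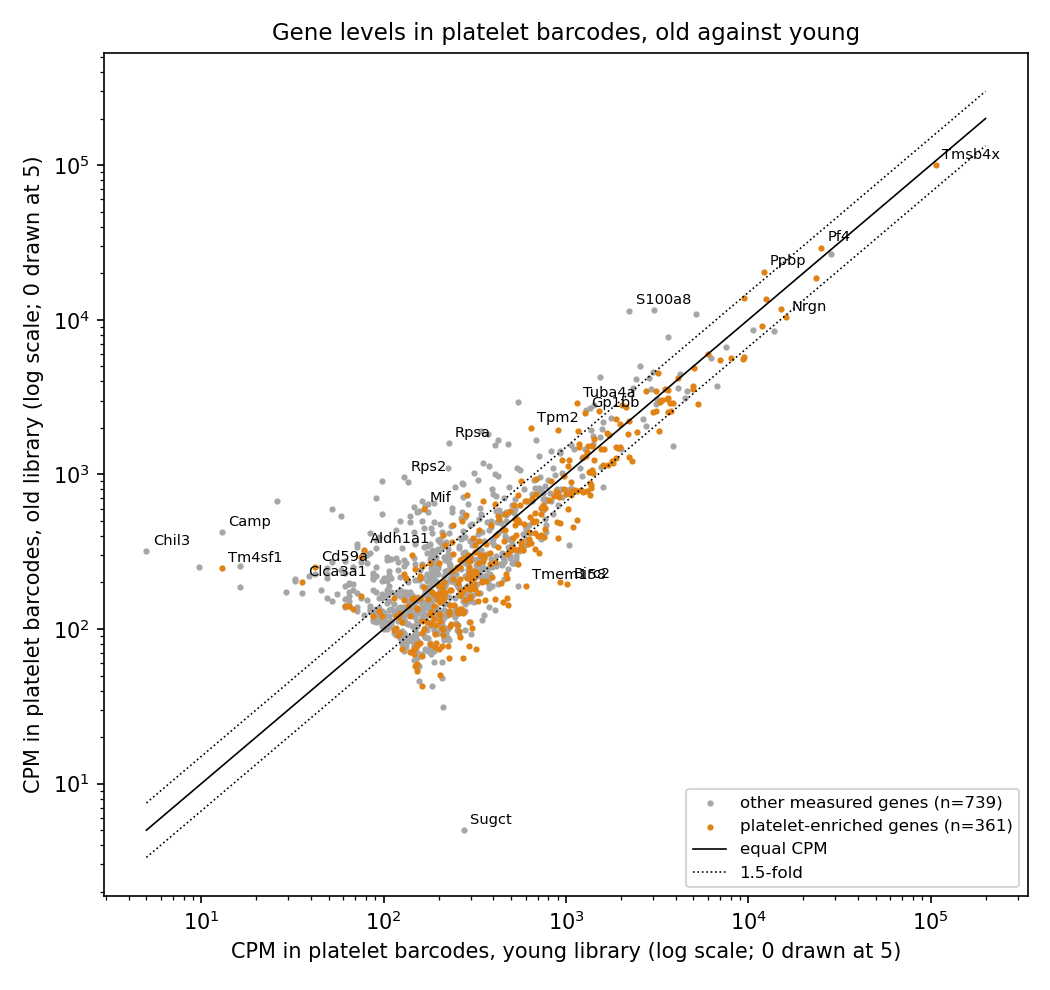
CPM of the 1100 measured genes in platelet barcodes, old library on the vertical and young on the horizontal log axis, with platelet-enriched genes in orange, equal CPM as a solid line and 1.5-fold as dotted lines. Tm4sf1, Cd59a, Clca3a1 and Aldh1a1 lie above the lines among orange points, Birc2 and Tmem158 below, and Sugct and Chil3 lie at the edges because 1 library had 0 UMIs.

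The largest old over young ratio among platelet-enriched genes was that of Tm4sf1, a tetraspanin-like membrane protein best known from endothelial cells. Endothelial markers summed to 11.1 CPM in old and 29.2 CPM in young platelet barcodes, and which cells made the Tm4sf1 RNA was not tested. Tm4sf1 had 133 UMIs in old and 4 in young platelet barcodes, 246.6 (206.5 to 292.2) CPM in old against 12.99 (3.54 to 33.3) CPM in young, 19.0-fold higher, with a log2 ratio of 4.15 (2.86 to 6.14). Thinned to 500 UMIs, 12.2% (9.65 to 15.2) of old and 0.915% (0.189 to 2.65) of young platelet barcodes held a Tm4sf1 UMI. None of 1000 neutrophil barcodes of either library did at this depth, and 3 counts, taken as the limit of a count of 0, allow up to 0.3% with a UMI. Without thinning the shares were 18.8% of old and 1.22% of young platelet barcodes, and 1.95% and 0.0963% of the far deeper neutrophil barcodes. The gene (ENSMUSG00000027800, build GRCm38) lies on chromosome 3 from 57285611 to 57301988 on the minus strand.

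Cd59a, an inhibitor of the complement attack complex, Clca3a1, of the calcium-activated chloride channel regulator family, and Aldh1a1, a retinaldehyde dehydrogenase, were also several-fold higher. Cd59a stood at 252 (212 to 298) CPM in old platelets, against 42.2 (22.5 to 72.2) CPM in young, 5.97-fold higher. Clca3a1 was at 200.2 (164 to 242) CPM in old platelets and 35.7 (17.8 to 63.9) CPM in young, 5.61-fold higher. Aldh1a1 reached 326 (279.9 to 378) CPM in old platelets and 77.9 (49.9 to 116) CPM in young, a ratio of 4.19. For each of the 4 genes the intervals of the 2 libraries were apart, a description only, since the genes were picked by these ratios. S100a8-linked neutrophil RNA would bring under 0.1% of the level, and other sources were not tested. In thinned barcodes Cd59a was found in 10.8% of old and 2.13% of young platelets, Clca3a1 in 8.20% and 0.610%, and Aldh1a1 in 13.8% and 4.27%, with 0 of 1000 neutrophil barcodes for each. The genes lie on chromosome 2 from 104095801 to 104115354, on chromosome 3 from 144729677 to 144760977 and on chromosome 19 from 20492715 to 20643465.

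These transcripts were spread over many platelets. After thinning, 215 old platelet barcodes (37.5%, 33.5 to 41.6) held at least 1 UMI of Tm4sf1, Cd59a, Clca3a1 or Aldh1a1, against 26 young ones (7.93%, 5.24 to 11.4). Only 36 of the 215 held UMIs of more than 1 of the 4 genes. Old barcodes with and without such a UMI had median ribosomal shares of 3.4% and 3.2% and neutrophil shares of 2% and 2.2%. By depth, Tm4sf1 stood at 211, 271 and 249.05 CPM in the shallowest, middle and deepest of 3 ranges of depth in old platelet barcodes, and at 21.9, 9.12 and 9.34 CPM in young ones.

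The other 6 of the 10 largest ratios among platelet-enriched genes included cytoskeletal genes. Tuba4a, an alpha tubulin of the platelet microtubule ring, stood at 2879 CPM in old against 1146 CPM in young, 2.51-fold higher, and Tpm2, a tropomyosin that coats actin filaments, at 1993 (1876 to 2116) CPM in old and 643 (556 to 739) CPM in young platelets, 3.10 times as much. Tpm2 was found in 48.9% of thinned old platelet barcodes, 19.8% of young and 0 of 1000 neutrophil barcodes of each library. Mif, a secreted cytokine, stood at 601 CPM in old against 166 CPM in young, Rexo2, a mitochondrial oligoribonuclease, at 291 CPM in old against 74.7 CPM in young, and Serpinb6a, an intracellular protease inhibitor, at 734 CPM in old against 286 CPM in young. In neutrophil barcodes Mif was also higher in old, at 72.4 CPM against 26.7 CPM in young, and Serpinb6a was not, at 31.4 CPM against 39.8 CPM. Trappc6a, of a vesicle tethering complex, stood at 141 CPM in old against 61.7 CPM in young. It was also higher in old neutrophil barcodes, at 25.5 CPM against 9.61 CPM in young. So was Tuba4a, at 69.3 CPM in old against 44.4 CPM in young neutrophil barcodes.

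The smallest ratios among platelet-enriched genes were those of Birc2 and Ormdl3. Birc2, an inhibitor of apoptosis and ubiquitin ligase, stood at 195 (159 to 236) CPM in old and 1013 (904 to 1132) CPM in young platelets, 5.20-fold lower in old. Ormdl3, a regulator of sphingolipid synthesis in the endoplasmic reticulum, stood at 202 (166 to 244) CPM in old against 932 (827 to 1046) CPM in young, 4.61-fold lower. Thinned, Birc2 was found in 8.73% of old and 34.8% of young platelet barcodes, against 1% and 1.6% of neutrophil barcodes, and Ormdl3 in 9.42% and 33.5% against 0% and 0.3%. Without thinning Birc2 was in 12.7% of old and 48.5% of young platelet barcodes, and 15.5% and 13.9% of neutrophil barcodes. Both sets of intervals were apart, a description only, since these ratios picked the genes. Hist1h2ac, a histone, stood at 74.2 CPM in old against 321 CPM in young, Chac2, which degrades glutathione, at 64.9 CPM in old against 273 CPM in young, and Dapk1, a death-associated kinase, at 77.9 CPM in old against 295 CPM in young. Tmem158 stood at 191 CPM in old against 604 CPM in young and Tmem140 at 143 CPM in old against 484 CPM in young, both membrane proteins. Tmem140 was also lower in old neutrophil barcodes, at 21.6 CPM against 99.2 CPM in young. Chac2 was not, at 11.6 CPM in old against 7.03 CPM in young neutrophil barcodes. Knop1, Fam110b and Rnf144b were 4.09-fold, 3.81-fold and 3.50-fold lower.

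The deeper platelet barcodes gave the same side for these genes. All 10 of the largest and all 10 of the smallest ratios lay past 1.5-fold in the same direction there, with log2 ratios of 0.73 to 4.99 and -2.43 to -1.18. Most deeper barcodes hold 1% or more neutrophil UMIs, so those with under 1%, 40 old and 21 young, were also taken alone. In them Tm4sf1 stood at 256 CPM in old against 9.64 CPM in young, Cd59a at 243 CPM in old against 86.8 CPM in young, Birc2 at 132 CPM in old against 549.8 CPM in young and Ormdl3 at 94.8 CPM in old against 762 CPM in young. Few barcodes lie behind the young levels of Tm4sf1 and Cd59a. Without thinning, 1 of all 56 young deeper barcodes held a Tm4sf1 UMI and 8 a Cd59a UMI. Of all 109 old deeper barcodes 50 and 52 did. The young level of Tm4sf1 is thus not resolved there.

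**Figure D3:**
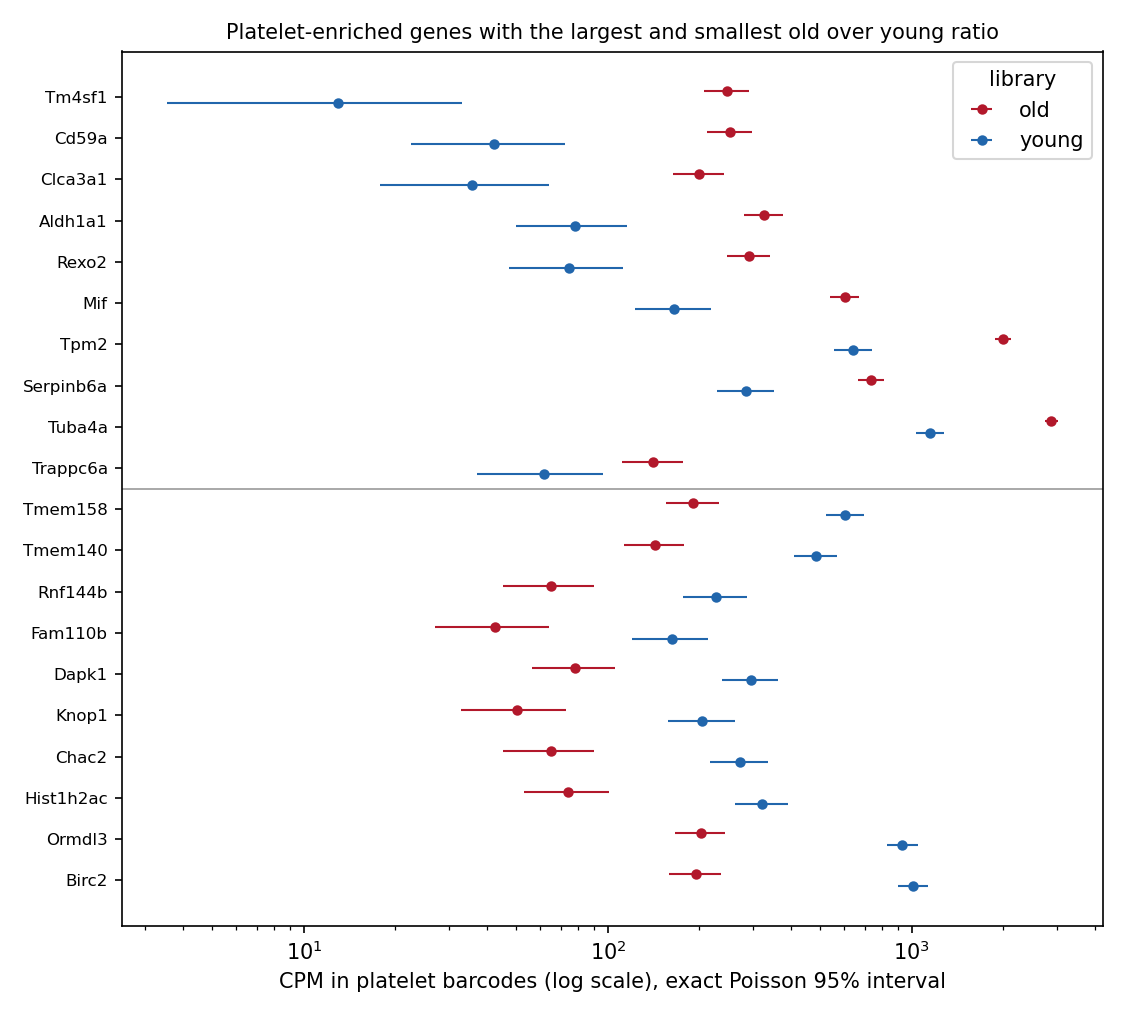
CPM in platelet barcodes on a log axis for the 10 platelet-enriched genes with the largest and, under the line, the 10 with the smallest old over young ratio, old in red above young in blue. Bars are exact Poisson 95% intervals, and levels run from Tm4sf1 at 246.6 CPM in old against 12.99 CPM in young to Birc2 at 195 CPM in old against 1013 CPM in young. The bars do not overlap between the libraries for any of the 20 genes, a description only, since these ratios picked the genes. All 32 higher and all 125 lower platelet-enriched genes had a ratio interval excluding no change.

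Granule cargo and secreted proteins were balanced, with 2 of 13 measured genes (of 24 listed) higher, 2 lower and a median log2 ratio of -0.01. F13a1, the subunit of the clot-stabilising factor XIII, was at 575 (513 to 642) CPM in old and 153 (112 to 203) CPM in young platelets, a ratio of 3.77. Monocytes also make F13a1, and the monocyte markers Ly6c2, at 102 CPM in old against 12.99 CPM in young, and Ccr2, at 35.2 CPM in old against 3.25 CPM in young, were higher in old platelets too, with Saa3 and Vcan at 0 in young. Their part in the F13a1 difference was not tested. Serpine2, a thrombin inhibitor, stood at 215 CPM in old against 133 CPM in young. Ecm1, an extracellular matrix protein, stood at 489 CPM in old against 893 CPM in young and Pdgfa, a chain of platelet-derived growth factor, at 104 CPM in old against 230.5 CPM in young. Thbs1, the adhesive glycoprotein thrombospondin, at 3443 CPM in old against 3107 CPM in young, Vwf, von Willebrand factor, at 1244 CPM in old against 1032 CPM in young, Clu and Tgfb1 lay within 1.5-fold.

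Ppbp, the precursor of the neutrophil-attracting chemokine NAP-2, and Gp1bb, a chain of the von Willebrand factor receptor, helped to choose the barcodes and are described only. Ppbp stood at 20458 CPM in old against 12119 CPM in young and Gp1bb at 2499 CPM in old against 1273 CPM in young, both past 1.5-fold higher in old platelets. Gp9, of the same receptor, stood at 3480.1 CPM in old against 2734 CPM in young and Clec1b, the podoplanin receptor, at 5529 CPM in old against 7019 CPM in young, both within 1.5-fold.

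Adhesion receptors lay slightly below the median gene, with 1 of 15 measured genes (of 20 listed) higher, 2 lower and a median of -0.34. Itgb3, the partner of Itga2b, stood at 1893 (1779 to 2013) CPM in old and 1162 (1045 to 1289) CPM in young platelets, 1.63-fold higher, but within 1.5-fold in deeper barcodes (log2 0.31), while Itga2b lay at equal levels. Cd226, an adhesion receptor of the immunoglobulin family, stood at 769 CPM in old against 1240.2 CPM in young and Esam, a junctional adhesion protein, at 324 CPM in old against 584 CPM in young. Gp5, Gp6, the collagen receptor, Gp1ba and Itga6 lay within 1.5-fold. Relative to the median gene only Esam counted as lower.

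Among agonist receptors, 5 of 13 were measured, of which 1 was higher and 2 lower. The 3 ADP and ATP receptors were not alike. P2rx1, the ATP-gated channel, stood at 543 (483 to 609) CPM in old and 282 (226 to 348) CPM in young platelets, a ratio of 1.92. P2ry12, the ADP receptor blocked by clopidogrel, stood at 369 CPM in old against 565 CPM in young and P2ry1, the other ADP receptor, at 122 CPM in old against 205 CPM in young. Centred on the median gene, P2ry12 lay within 1.5-fold. The log2 ratio of P2rx1 was 0.94 here and -0.0468 in the deeper platelet barcodes. In the deeper ones P2ry1 also lay within 1.5-fold (log2 -0.47), while P2ry12 was lower in old (-0.75). In all other filtered barcodes P2ry12 was lower in old too (-1.38), whereas P2ry1 was higher (0.68). F2rl2, a thrombin receptor of mouse platelets, at 578.5 CPM in old against 493.5 CPM in young, lay within 1.5-fold.

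Signalling genes downstream of these receptors had 1 of 26 measured genes (of 36 listed) higher and 3 lower, with a median of -0.22. Lat, an adaptor of the collagen receptor pathway, stood at 245 CPM in old against 149 CPM in young. Gucy1b1, a subunit of the nitric oxide receptor guanylate cyclase that restrains platelets, stood at 391 CPM in old against 756 CPM in young, and the G protein alpha subunits Gnaz and Gnaq at 206 CPM in old against 364 CPM in young and 94.6 CPM in old against 192 CPM in young. Fermt3, the kindlin that activates integrins, stood at 3547 CPM in old against 3506 CPM in young. The 4 measured eicosanoid genes, among them Alox12 at 3046 CPM in old against 3379.6 CPM in young and Ptgs1, the cyclooxygenase that aspirin blocks, at 252 CPM in old against 253 CPM in young, all lay within 1.5-fold.

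Genes of granule formation and secretion had 1 of 9 measured genes (of 19) higher and 2 lower. Cd63, a tetraspanin of dense granules and lysosomes, stood at 226 (188 to 270.1) CPM in old and 48.7 (27.3 to 80.3) CPM in young platelets, 4.64-fold higher. The membrane fusion proteins Stx11 and Snap23 stood at 831 CPM in old against 1594 CPM in young and 551 CPM in old against 851 CPM in young, Snap23 within 1.5-fold once centred on the median gene.

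The microtubule ring that gives platelets their disc shape had 2 of 9 measured genes (of 10) higher and 2 lower. Besides Tuba4a, Tubb5 stood at 228 CPM in old against 42.2 CPM in young, 5.40-fold higher, whereas Tubb1, the beta tubulin of the megakaryocyte lineage, stood at 404 CPM in old against 529 CPM in young within 1.5-fold. Kif2a, a kinesin that shortens microtubules, stood at 597 CPM in old against 1023 CPM in young and Tuba8 at 74.2 CPM in old against 127 CPM in young. Tubulin genes are close in sequence, so single members are uncertain where reads could be split between them. Of 25 measured actin and myosin genes (of 26), 2 were higher and 1 lower, with a median of 0.06. Pfn1, which feeds actin to filaments, stood at 5039 CPM in old against 2552 CPM in young and Myl12a at 469 CPM in old against 298.7 CPM in young, and Mylk, the myosin light chain kinase, at 404 CPM in old against 731 CPM in young. Relative to the median gene 6 were higher and 1 lower.

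Transcription factors of the megakaryocyte were lower throughout those that could be measured. Of 17 listed, 6 were measured and 0 were higher and 6 lower, with a median of -1.11, or -0.98 relative to the median gene. Nfe2, which drives platelet release, stood at 319 (273 to 370.3) CPM in old and 555 (475 to 645) CPM in young platelets. Gata1, the master factor of the lineage, stood at 66.7 (46.7 to 92.4) CPM in old and 162 (120.5 to 214) CPM in young. Tal1, Gata2, Fli1 and Mef2c stood at 81.6 CPM in old against 195 CPM in young, 70.5 CPM in old against 139.6 CPM in young, 259.6 CPM in old against 445 CPM in young and 48.2 CPM in old against 208 CPM in young. In all other filtered barcodes of the same libraries 3 of the 6 were lower and 0 higher, with a median of -0.41. Gata1 was found in 1.57% of thinned old and 5.79% of young platelet barcodes and in 0 of 1000 neutrophil barcodes of each library. In deeper platelet barcodes 5 of the 6 were lower, with a median of -0.77, and Gata1 lay within 1.5-fold (log2 -0.57), found in 1.83% of thinned old and 1.79% of young barcodes.

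**Figure D4:**
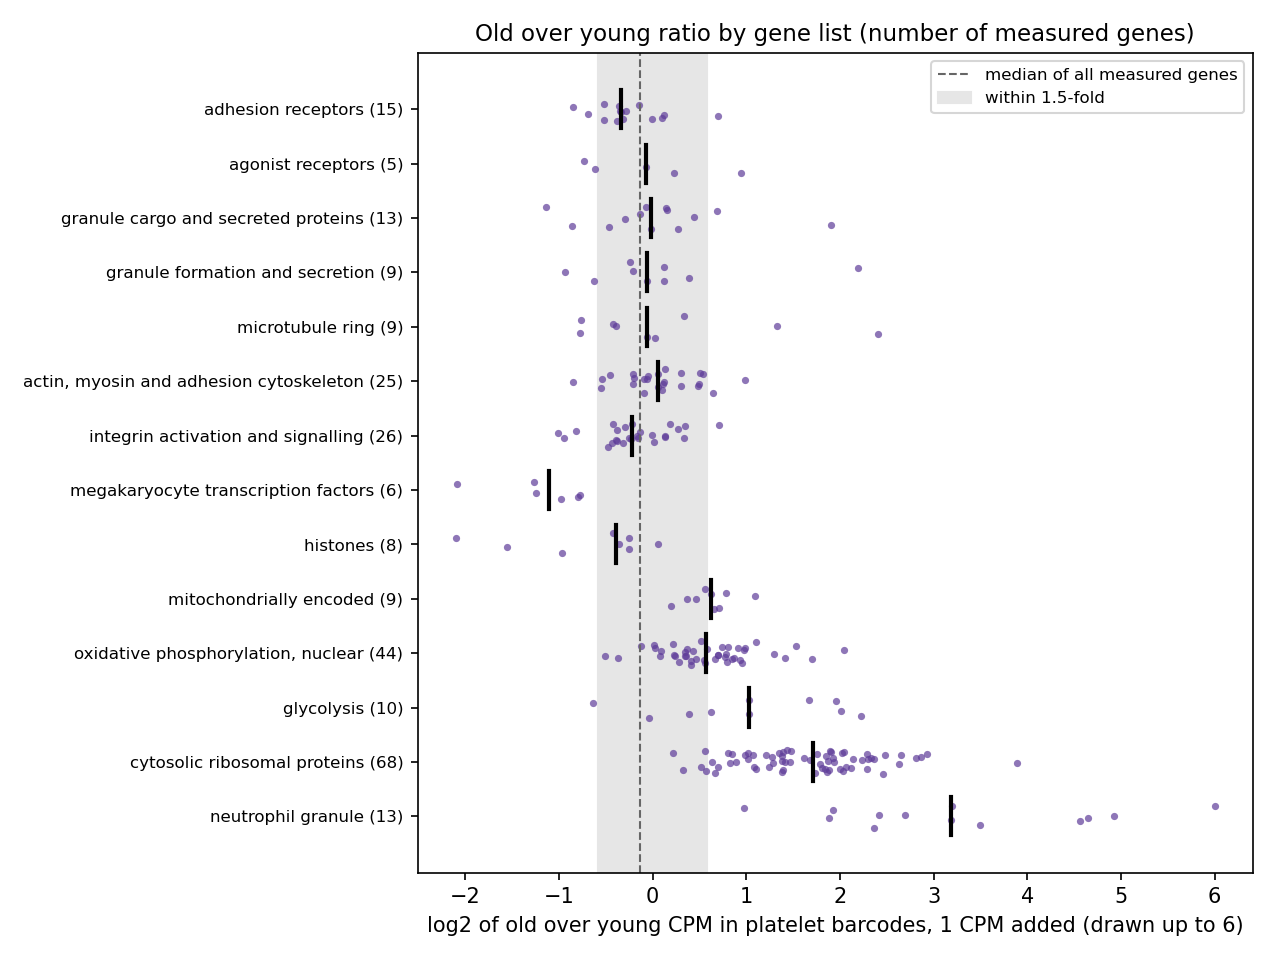
log2 ratio of old over young CPM in platelet barcodes for the measured genes of 14 lists, 1 point per gene and a bar at the median, with the dashed line at the median of all 1100 genes (-0.13) and a grey band for ratios within 1.5-fold. Megakaryocyte transcription factors lie left of the band (median -1.11), ribosomal protein genes right of it (1.71), and neutrophil granule genes farther right (3.19); Chil3, with 0 young UMIs, is drawn at 6.

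Cytosolic ribosomal proteins, which build the translating ribosome, were the largest list in which most measured members were higher. The list was written after values had been seen. Of 82 genes 68 were measured, 63 of them (92.6%) higher in old platelets and 0 lower, with a median log2 ratio of 1.71 and a range of 0.22 to 3.89. Summed over the list, they stood at 37906 (37388 to 38430) CPM in old and 12320 (11932 to 12719) CPM in young platelets, 3.08-fold higher. Rpsa stood at 1600.1 (1495 to 1710.5) CPM in old and 227 (177 to 287) CPM in young platelets, a ratio of 7.04. Rps2 stood at 955 (874 to 1041) CPM in old and 129.9 (92.8 to 177) CPM in young, and Rplp1 at 1902 (1788 to 2022) CPM in old and 341 (279 to 413) CPM in young. Ribosomal protein genes have many processed pseudogenes, so single members are uncertain.

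The ribosomal ratio was also taken in the rest of the same libraries, with no test of the difference. In all other filtered barcodes 7 of the 68 genes were higher and 1 lower, with a median of 0.20, and in neutrophil barcodes 22 were higher and 2 lower, with a median of 0.25. Every one of the 68 genes had a higher ratio in platelet than in neutrophil barcodes. Neutrophil RNA in proportion to S100a8 would bring 6.76% of the list's summed level in old and 8.73% in young platelets. Rpsa was found in 48.7% of thinned old platelet barcodes and 10.4% of young, against 10.4% and 4.7% of neutrophil barcodes. The gap was present in each depth range, at 37947.5, 41239.9 and 34425.5 CPM in old barcodes from shallow to deep and 12659, 12109 and 12248 CPM in young. In deeper barcodes 47 of the 68 were higher, with a median of 0.89, and where neutrophil UMIs were under 1% the summed share was 7.44% in old and 2.77% in young. A summed share gives more weight to barcodes with more UMIs and is not that of a usual barcode. Over all deeper barcodes the median share per barcode was 3.14% in old and 1.82% in young, and the highest 30.4% and 17.1%.

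**Figure D5:**
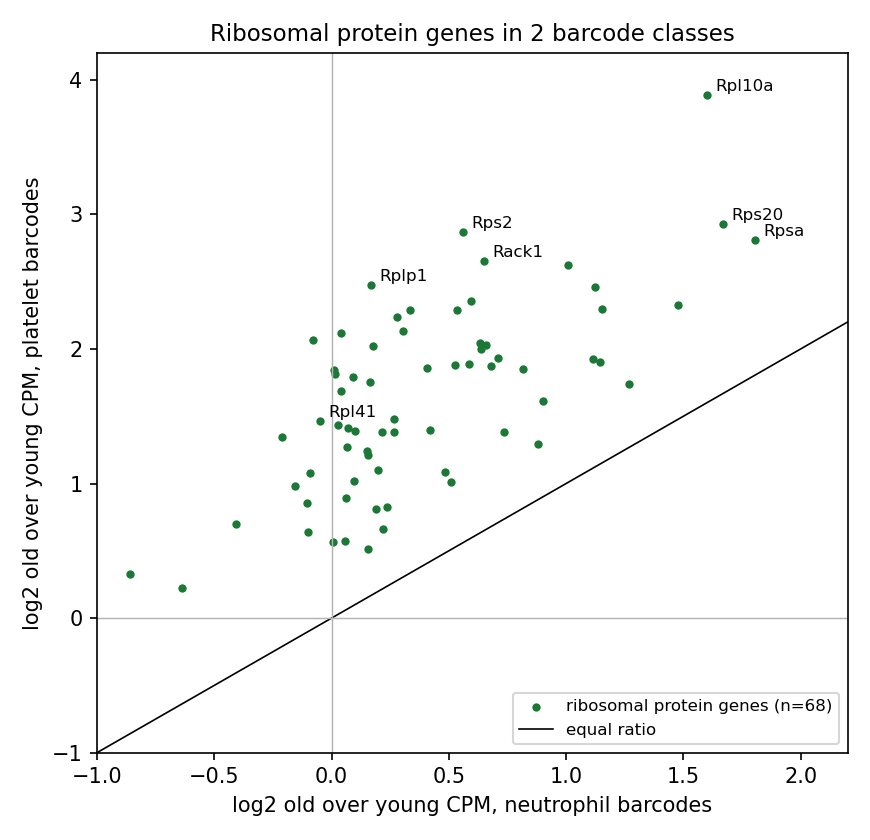
log2 ratio of old over young CPM for 68 ribosomal protein genes in platelet barcodes (vertical) and in neutrophil barcodes (horizontal), with the line of equal ratio. All 68 points lie above the line, and the medians are 1.71 in platelet and 0.25 in neutrophil barcodes.

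Genes of protein folding, translation and degradation were counted in lists also written after values had been seen. Of 5 measured genes of endoplasmic reticulum translocation and folding (of 18), 4 were higher and 0 lower. Ssr4, a subunit of the translocon, stood at 556 CPM in old against 97.4 CPM in young and Calr, the chaperone calreticulin, at 172 CPM in old against 29.2 CPM in young, 5.71-fold and 5.90-fold higher. Of 12 measured translation factors (of 19), 6 were higher, 1 was lower and 5 lay within 1.5-fold. Eef1a1, the elongation factor, stood at 1659 CPM in old against 685 CPM in young. Proteasome genes had 0 of 9 higher and 1 lower, Psmd4 at 265 CPM in old against 523 CPM in young, and histones 0 of 8 higher and 3 lower, with a median of -0.39.

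Of the genes of energy metabolism, in lists also written after values had been seen, part passed 1.5-fold. All 9 measured transcripts of the mitochondrial genome (of 13) had a ratio above 1, and 5 passed 1.5-fold, led by mt-Co1 at 10963 CPM in old against 5152 CPM in young. Their median log2 ratio was 0.62 in platelet barcodes and 1.62 in neutrophil barcodes. Of 44 measured nuclear genes of oxidative phosphorylation (of 99), 22 were higher and 0 lower in platelets, with a median of 0.57, against 8 higher and 1 lower in all other barcodes. Atp5e, of the ATP synthase, stood at 879 CPM in old against 269.5 CPM in young. Of 10 measured glycolytic genes (of 14), 7 were higher and 1 lower, with 8 and 0 in all other barcodes. Pgk1, phosphoglycerate kinase, stood at 317 CPM in old against 77.9 CPM in young, Gapdh at 2616 CPM in old against 1286 CPM in young, and Tpi1, triosephosphate isomerase, was lower at 219 CPM in old against 341 CPM in young, but not once centred on the median gene.

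Immune genes were few among those measured. Of 5 measured interferon-stimulated genes (of 18), Ifitm1, Ifitm2 and Ifitm3, membrane proteins that block viral entry, were higher and Ifit1, an antiviral RNA sensor, was lower. Ifitm3 stood at 1563 CPM in old against 480.5 CPM in young, of which S100a8-linked RNA would bring 10.9% in old platelets, and Ifitm1 at 868 CPM in old against 273 CPM in young, with 40.5%. Ifit1 was at 42.6 (27.0 to 64.0) CPM in old and 185 (140.2 to 239.8) CPM in young, 4.34-fold lower. In platelet barcodes the 5 genes had a median log2 ratio of 1.19, and in deeper platelet barcodes of 0.54. In the deeper ones Ifitm1 and Ifitm3 were past 1.5-fold higher, Ifit1 was lower and Ifitm2 lay within 1.5-fold. In all other filtered barcodes 2 of the 5 genes were higher and 2 lower, with a median of 0.42. Ifit1 had a log2 ratio of -2.05 there, Ifitm1 of 1.27 and Ifitm3 of 0.96, while Ifitm2 lay within 1.5-fold. The differences in Ifit1, Ifitm1 and Ifitm3 were thus not confined to platelet barcodes. H2-K1, a class I major histocompatibility chain, stood at 523 CPM in old against 266 CPM in young and H2-T23 at 261 CPM in old against 409 CPM in young, with B2m and H2-D1 within 1.5-fold. H2-K1 lay within 1.5-fold in deeper barcodes (log2 0.08), and H2-T23 once centred on the median gene. Class I genes are close in sequence and uncertain singly. Of 3 measured iron and haem genes (of 10), 0 were higher and 2 lower, with a median of -0.72. Fth1, the ferritin heavy chain, stood at 8403 CPM in old against 13817 CPM in young and Blvrb, which reduces biliverdin, at 156 CPM in old against 406 CPM in young, Fth1 just within 1.5-fold once centred. Bcl2l1, which encodes the survival protein Bcl-xL that sets platelet lifespan in mice, stood at 197 CPM in old against 325 CPM in young, 1.65-fold lower.

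Genes noted in aged blood stem cells, a list of 12 chosen after Aldh1a1 and Clca3a1 had been seen, had 6 measured members, of which 3 were higher (Aldh1a1, Clca3a1 and Itgb3) and 0 lower. Vwf, Clu and Fhl1 lay within 1.5-fold. The direction of this list carries no weight of its own.

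The largest ratios over all measured genes were those of neutrophil granule genes, 13 of 13 measured (of 15) higher with a median of 3.19, a value that is the same with Chil3 at its bound. In all other filtered barcodes 12 of the 13 were higher and 0 lower, with a median of 2.19, and in neutrophil barcodes the median was 2.05. Neutrophil barcodes had Camp at 4515 CPM in old against 347 CPM in young and Ltf at 2538 CPM in old against 168 CPM in young. Chil3, a chitinase-like protein, had 171 UMIs in old and 0 in young platelets and was at least 32.6-fold higher, taking 3 counts in the young library (9.74 CPM) as the limit. Ngp stood at 675 CPM in old against 26.0 CPM in young, Camp, an antimicrobial peptide, at 423 CPM in old against 12.99 CPM in young and Ltf, lactoferrin, at 252 CPM in old against 9.74 CPM in young. Neutrophil RNA in proportion to S100a8 would bring 97.6%, 84.2% and 79.3% of these old levels. The shares were 55.4% for Retnlg and 28.3% for Chil3, so these genes did not keep the ratio to S100a8 that they have in neutrophil barcodes. At the other end, Sugct, a mitochondrial CoA transferase, had 0 UMIs in old and 85 in young platelets and was at least 49.6-fold lower. It stood at 4.36 CPM in old against 849 CPM in young neutrophil barcodes of the same libraries, so neutrophils of these libraries differ in it too.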

How the data were processed

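Single-cell RNA was measured in 2 libraries, 1 per age, and old was compared with young. The files hold UMI counts per gene and barcode as the authors deposited them, not normalized, for 32285 genes, with barcodes of 16 bases. Per the file headers they were written by Cell Ranger 7.2.0, and the submitters' processing notes name build mm10. The labels name BD Rhapsody as the platform, whereas Cell Ranger and 16-base barcodes belong to another vendor's system, a conflict that was not resolved. The annotation release and the cell calling are not given in the sources used here. The libraries held 14334 old and 13599 young barcodes with 128826996 and 69599479 UMIs, at least 500 per barcode. Filters removed 817 and 678 barcodes.

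The members, lists and tests were chosen with earlier results of these data known, and the lists described as written after values had been seen were added last. UMIs were summed over platelet barcodes per library and scaled to CPM, with 1 CPM added before taking log2 ratios. At these depths 3 UMIs equal 5.56 CPM in old and 9.74 CPM in young platelet barcodes. Genes were named by a rule: the 6 genes of the definition and the markers, up to 6 measured members per list by level, the 10 largest and 10 smallest ratios among platelet-enriched genes and the 8 largest and 8 smallest of all. Mitochondrial, ribosomal protein, haemoglobin, immune receptor, Xist, Y-linked and unnamed genes were left out of the ratio parts. Nrgn, the genes of the added lists and genes cited for being past 1.5-fold were named outside this rule, and not every gene it gave is reported. Positions come from the GENCODE annotation of GRCm38 (116 of 116 named genes matched by identifier) and promoters from RefSeq (GRCm38.p6). Ratios and intervals were tested on simulated counts first. Python 3.11.15, numpy 2.4.6, scipy 1.17.1 and pandas 2.3.3 were used. UMIs are counted after amplification, and intervals cover counting error only. Alternatives changed the limits of the rule, the filter, the weighting, the scaling, the added CPM and the minimum level.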

Additional observations from a re-analysis of the deposited data

Results flagged for a closer look

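Between platelet and neutrophil barcodes of the same libraries, 3 named genes past 1.5-fold in both lay on opposite sides. Bcl2l1 had a log2 ratio of old over young of -0.721 in platelet barcodes and 0.83 in neutrophil barcodes. Blvrb stood at -1.38 in platelet and 0.768 in neutrophil barcodes. H2-K1 stood at 0.971 in platelet and -0.652 in neutrophil barcodes, and in deeper platelet barcodes at 0.07996. With 1 library per age these differences were not tested.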

How the results depend on the processing

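No paired analysis was possible because the labels give 1 library per age and no replicate numbers, and leaving out a replicate was not possible either. The old share of platelet barcodes was 3.85% with at least 3% of UMIs from the 6 genes, 3.67% without barcodes of 5% or more neutrophil UMIs and 3.72% under 1500 UMIs, where the young share was 2.27%. With a minimum of 200 CPM, 21 platelet-enriched genes were higher and 74 lower, 136 and 148 of all measured genes, and 16 list members lower; with 50 CPM, 356 and 497 of all measured genes. With 10-fold enrichment 79 platelet-enriched genes were lower. In deeper barcodes, an alternative chosen after seeing the data, 16 platelet-enriched genes were higher and 60 lower, and 463 of all genes lower; P2rx1 was at -0.04684 and the interferon list median at -0.79, over other genes that pass the minimum there (the 5 genes of the report had 0.54). These counts differ because fewer or more genes and barcodes enter; for P2rx1 the cause was not tested. With the UMIs expected to come with S100a8 taken off, also added, and for the log2 ratio, S100a8 lay at -0.004356 by construction. Of the 157 platelet-enriched genes past 1.5-fold, 147 kept their call without barcodes of 5% or more neutrophil UMIs, 144 with S100a8-linked UMIs taken off and 58 in deeper barcodes, all in the same direction. To keep its call a gene had to pass the minimum level and the 4-fold enrichment again. Only 220 genes were platelet-enriched in deeper barcodes, so a call not kept there need not be a changed ratio. Of 1997 alternative values for lists and single genes 1842 were within their limits, 152 moved and 3 changed side, those of the interferon list, P2rx1 and S100a8 above. At this depth a gene of a few UMIs in either library is not resolved.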
